A study of Saccharomyces cerevisiae with 12 samples.

Results

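In wild type budding yeast, 124 genes had more transcript after 10 min at pH 8 and less transcript after 15 min in low glucose. They are 2.57% of the 4825 genes with enough wild type values, out of 6212 rows in the deposited table. A gene was taken where the plain mean log2 ratio of the 4 wild type pH 8 arrays, with at least 3 values, was 0.3 or more and the mean of the 2 wild type low glucose arrays was -0.3 or less. Of the 127 genes that met both thresholds, GSC2, PMC1 and PMR1 are left out. The genes were thus chosen by the wild type ratios at both treatments, which are given as a description and not tested. The snf1 arrays and gene length had no part in the choice.

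The study compared transcript levels on 12 two-colour arrays, each carrying RNA of a treated and of a control culture of one strain of Saccharomyces cerevisiae. In the alkaline pH experiment, 16 mM KOH was added to log-phase cells in YPD, a rich medium, for 10 min at 28 °C, giving about pH 8.0. The control received 16 mM KCl and stayed at about pH 5.5. In the glucose experiment, cells grown in YPD were spun down, washed with water and put into fresh YP medium with 0.05% glucose, or with 2% glucose as the control, for 15 min, so both arms went through the change of medium. The groups are snf1 at pH 8 (4 arrays, strain DBY4741), wild type at pH 8 (4 arrays, DBY4741), snf1 at low glucose (2 arrays, DBY746) and wild type at low glucose (2 arrays, DBY746).

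The genotype is written as snf1::KanMX on 3 of the snf1 pH 8 arrays and as snf11::KanMX on array 1, whose title names snf1, and it is given only as "snf1 mutant" at low glucose. SNF1 itself had a value on 1 snf1 pH 8 array (0.16) and on 1 wild type pH 8 array (0.29) and on none at low glucose. A ratio of treated over control within a strain does not check the deletion. The 2 treatments were run in different strains, so treatment and strain cannot be told apart. The labels do not say whether the arrays of a group come from separate cultures, so p-values measure the spread between these arrays. Values below are log2 ratios, likely of treated over control. The base and the direction are not stated in the labels. Direction follows the order of the titles, and opposite-dye arrays of the same treatment correlated positively (lowest r 0.628 over 20 pairs). Arrays carried 4056 to 5597 values each, the fewest in snf1 at low glucose, and array number limits the precision.

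Snf1 is the yeast AMP-activated kinase. It is active when glucose runs low and is needed to express genes for the use of other carbon sources. Enzymes for amino acids, purines and one-carbon units are made under several regulators, among them the activator Gcn4, which switches on many amino acid pathways together when cells are short of an amino acid. In cells that lose glucose, translation and growth stop quickly, and transcripts of growth-related genes usually decline.

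In wild type the members stood at moderate levels on both sides. Their median was 0.49 at pH 8 and -0.72 at low glucose. At pH 8, 17 members reached a 2-fold mean increase, and 63 were under 0.5. At low glucose, 36 members were at least 2-fold lower. GCV2, ADE17 and ARG1 passed 2-fold on both sides. All 4 wild type pH 8 values were present for 103 members. In 99 members every measured pH 8 value was above 0. Wild type pH 8 arrays 1 to 4 held 124, 105, 124 and 122 member values, of which 3, 19, 2 and 2 were below 0. Both low glucose values were below 0 in 123, the exception being PSK1 (-0.91 and 0.24). As a description, limma called 97 of the 124 higher (percent called over all genes 25.6) and 0 lower (percent called 30) at pH 8. At low glucose it called 90 lower (percent called 31.5) and 0 higher (percent called 33.7), and 68 were called on both sides (percent called 1.64). Nothing is read from these counts, because the same values chose the members. In RNA of a whole culture, fewer cells with a transcript and less of it per cell cannot be told apart.

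Few genes took this combination. Of 1270 genes raised at pH 8 in wild type, 987 were also raised at low glucose, 156 lay within 0.3 of 0 there and 124 are the members, with the 3 genes left out. The plot of both wild type responses shows the members in the sparse lower right corner. Just inside the pH 8 threshold were CAN1 (0.3005), OAF1 (0.3027) and NHX1 (0.3028), and just outside were UBP2 (0.2992), ATG2 (0.2988) and YKR018C (0.2975). Just inside the low glucose threshold were FLC2 (-0.3015), SFT2 (-0.3035) and RAD26 (-0.304), and just outside were MOT3 (-0.2995), NPR1 (-0.2965) and PMT7 (-0.2875).

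**Figure D1:**
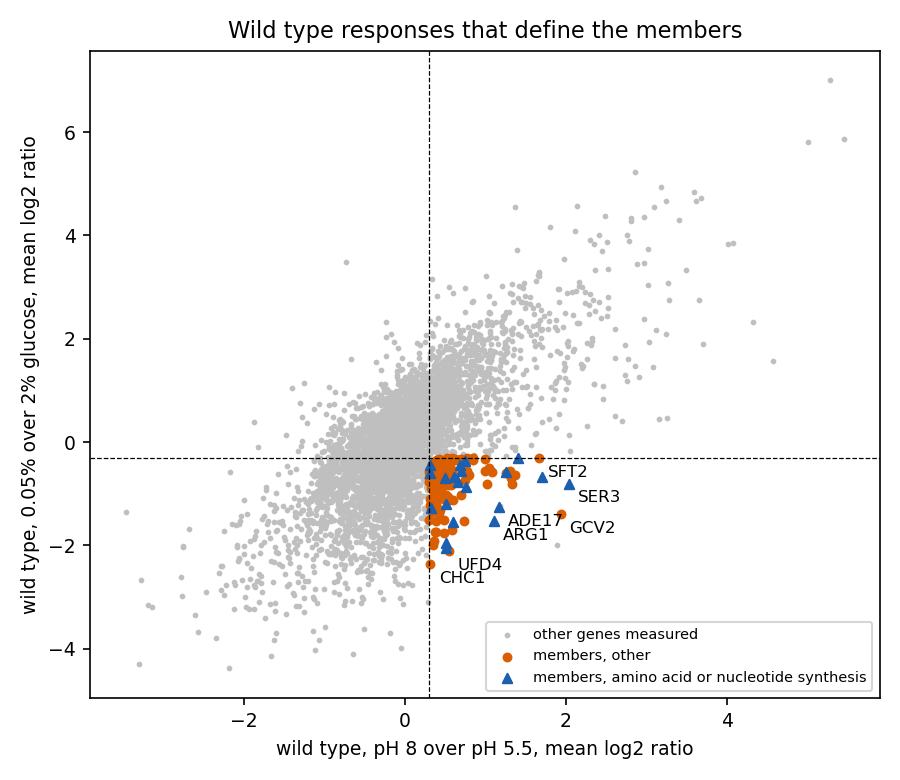
Each point is a gene with enough wild type values: the x axis is the mean log2 ratio of the 4 pH 8 arrays and the y axis that of the 2 low glucose arrays, dashed lines mark 0.3 and -0.3, orange points and blue triangles are the 124 members and grey points are other genes, including the 3 left out. Most genes lie along the rising diagonal. SER3 and GCV2 lie far to the right among the members, and CHC1 and UFD4 lie low and close to the vertical line.

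By function, 60 members fell in at least 1 of 49 gene lists and 64 in none. The list of amino acid synthesis held 15 members of its 79 measured genes (19.0%), nucleotide synthesis 5 of 33 (15.2%), ammonium and amino acid transport 5 of 35 (14.3%), TOR and Ras/PKA signalling 4 of 37 (10.8%), and the proteasome with ubiquitin ligases 4 of 48 (8.33%), beside 2.57% of all genes. Amino acid synthesis did not move as one: 28 of the 79 genes were lowered at both treatments, 6 were raised at both, and 15 are the members. No member came from the lists of ribosome biogenesis, translation factors, general stress, glycolysis, or trehalose and glycogen. These are counts of wild type values, which the choice of members used.

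Arginine synthesis supplied 6 members out of 10 measured genes, counted in a grouping made after the values were seen. ARG1, argininosuccinate synthetase, read -0.25, -0.54, 2.56 and 1.94 on the snf1 pH 8 arrays, against 0.34, 1.25, 1.21 and 1.65 in wild type. At low glucose it read 0.16 and -0.40 in snf1, against -1.48 and -1.57 in wild type. The snf1 values at pH 8 lay both below and above the whole wild type range, while at low glucose the genotypes did not overlap. Here and below, the choice of members by wild type ratios favours such separation. Its share over all genes was not counted, and nothing is read from it. ARG3, ornithine carbamoyltransferase, read 0.79, 0.40, 2.54 and 2.21 in snf1 at pH 8, against 1.04, 1.11, 2.09 and 2.60 in wild type. It rose in snf1 (mean 1.49 ± 1.05, SD, n = 4, limma adjusted p = 0.00632, and 0.229 without arrays 3 and 4) and had no snf1 value at low glucose, against -1.03 and -0.32 there in wild type.

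ARG4, argininosuccinate lyase, read 1.69 and 1.34 in snf1 at low glucose, against -0.28 and -0.61 in wild type. The groups did not overlap, and ARG4 rose in snf1 (1.51, limma adjusted p = 0.0175). The call was lost in 3 alternatives, over which the adjusted p reached 0.207. ARG7, the ornithine acetyltransferase, and ARG56, of the steps before it, were named after their values were seen. ARG7 stood at 0.63 in snf1 at low glucose (limma adjusted p = 0.00462), against -0.69 in wild type. ARG56 stood at 0.71 in snf1, where it did not pass the test (limma adjusted p = 0.0941), against -1.27 in wild type. Of the 7 arginine genes tested in snf1 at low glucose, 5 rose and 0 fell (percent called over all genes 28.9 and 16.9), in a grouping made with these values in view. Of the other groupings, serine, glycine and one-carbon genes gave 0 higher and 3 lower of 13 there, methionine and sulfur genes 0 and 1 of 13, and purine genes 2 and 0 of 9. The whole list of amino acid synthesis gave 14 higher and 9 lower of 78.

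Serine, glycine and one-carbon metabolism supplied 6 members out of 12 measured genes, again in a grouping made after the values were seen. Of the others, 3 were lowered at both treatments and 3 were raised at pH 8 with low glucose near 0. SER3, 3-phosphoglycerate dehydrogenase, opens serine synthesis and stood highest of all members in wild type at pH 8. It read 0.11, 0.08, 2.70 and 2.72 in snf1 at pH 8, against 1.97, 1.99, 2.06 and 2.16 in wild type. Thus 2 snf1 arrays were near 0 and 2 were above every wild type array. The mean in snf1 was 1.40 ± 1.51 (SD, n = 4, limma adjusted p = 0.0114), and the call was lost in 3 alternatives, with an adjusted p up to 0.472. At low glucose SER3 read 0.99 and 0.89 in snf1, which did not pass the test (limma adjusted p = 0.188), against -0.78 and -0.83 in wild type. These 2 snf1 values had an SD of 0.065, while the standard error in the fit was 0.555. The fit shares its spread with the pH 8 arrays. SER3 overlaps the noncoding RNA SRG1 by 77 nt and has the close paralog SER33, also a member and named after its values were seen, so the probe may report more than one RNA.

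GCV2 is a subunit of the glycine decarboxylase that feeds one-carbon units. It read -1.34 and -1.74 in snf1 at low glucose, against -1.06 and -1.72 in wild type. The ranges overlapped, and in snf1 GCV2 fell (-1.54, limma adjusted p = 0.000216). At pH 8 it had values on 2 snf1 arrays (1.95 and 1.72), against 1.97, 1.59, 2.06 and 2.14 in wild type, too few to be tested. All its measured snf1 values thus had the sign of wild type. SHM2, the cytosolic serine hydroxymethyltransferase, read -0.08, -0.20, 0.88 and 0.88 in snf1 at pH 8, against 0.54, 0.61, 0.70 and 0.61 in wild type, and did not pass the test (limma adjusted p = 0.111). ADE3, which interconverts folate-bound one-carbon units, had the same layout in snf1, with -0.12, -0.15, 0.83 and 0.92, against 0.46, 0.66, 0.44 and 0.50 in wild type.

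Purine and pyrimidine synthesis gave 5 members of 33 measured genes, while 11 were lowered at both treatments and 4 were raised at both. ADE17, which closes the purine ring, read -0.47, -0.21, 1.49 and 1.88 in snf1 at pH 8, against 1.502, 1.525, 0.93 and 0.74 in wild type. At low glucose ADE17 read -0.08 and -0.24 in snf1, against -1.21 and -1.31 in wild type, with no overlap. Neither snf1 mean passed the test (limma adjusted p = 0.112 at pH 8 and 0.798 at low glucose). ADE13, adenylosuccinate lyase, read -0.63, -0.24, 0.82 and 1.04 in snf1 at pH 8, against 0.99, 0.76, 0.58 and 0.33 in wild type. URA1, dihydroorotate dehydrogenase of pyrimidine synthesis, read -1.34 and -1.66 in snf1 at low glucose, against -0.64 and -0.51 in wild type, so both snf1 arrays were below both wild type arrays. It fell in snf1 (-1.497, limma adjusted p = 0.00238, and 0.0681 without low glucose array 2). At pH 8 URA1 read -0.44, -0.37, 0.25 and 0.56 in snf1, all below the wild type values of 0.77, 0.63, 1.85 and 1.77. ADE57 stood at -0.21 in snf1 at low glucose, against -1.95 in wild type.

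Methionine and sulfur genes gave 4 members of 14 measured, in the third grouping made after the values were seen. Of the others, 5 were lowered at both treatments and 2 were raised at both. MET10, a sulfite reductase subunit, read -0.64, -0.24, 0.65 and 0.44 in snf1 at pH 8, against 0.26, 0.45, 1.08 and 1.26 in wild type. MET6, methionine synthase and named after its values were seen, read -1.21, -1.10, 0.89 and 1.29 in snf1 at pH 8, against -0.16, -0.12, 1.22 and 1.08 in wild type. It changed sign between arrays 1 and 2 and arrays 3 and 4 in both genotypes. MUP1, the high-affinity methionine permease, read -0.02, 0.17, 1.06 and 1.47 in snf1 at pH 8, against 0.33, 0.48, 1.5 and 1.75 in wild type. MMP1, the S-methylmethionine permease, read -0.50, -0.69, 0.98 and 1.04 in snf1, against 0.16, 0.61, 2.42 and 2.28 in wild type. None of these 4 snf1 means passed the test at pH 8. HIS4, an enzyme of several steps of histidine synthesis, rose in snf1 at both treatments. It read 0.59, 0.60, 2.23 and 2.43 in snf1 at pH 8, against 1.48, 1.54, 1.46 and 1.15 in wild type, and 1.73 and 1.98 in snf1 at low glucose, against -0.58 and -0.03 in wild type (limma adjusted p = 0.00104 and 0.00244 in snf1). The low glucose call was lost without either snf1 array (limma adjusted p = 0.0502 and 0.0545).

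**Figure D2:**
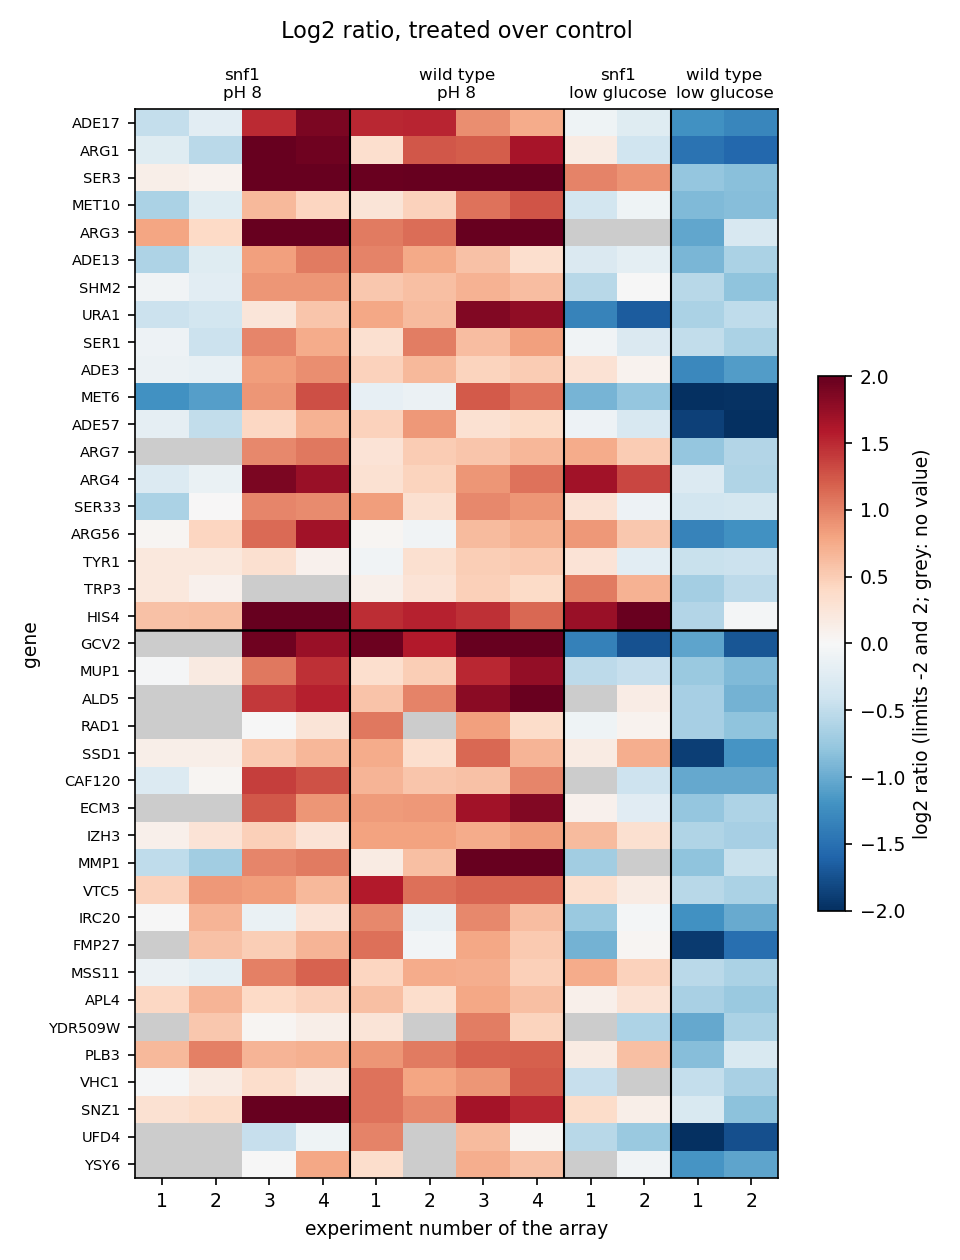
Colours give the log2 ratio of treated over control, cut at -2 and 2 and grey where there is no value, for 19 members of amino acid or nucleotide synthesis (above the line) and the first 20 other members by the smaller of their wild type responses (below), with 1 column per array and the snf1 arrays left of the wild type arrays at each treatment. In the upper block the snf1 pH 8 arrays 1 and 2 are pale or blue where arrays 3 and 4 are red, and the snf1 low glucose arrays lack the blue of wild type for most genes.

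The snf1 pH 8 arrays fell into pairs over the 20 synthesis members. Their medians were -0.18 and -0.15 on arrays 1 and 2 and 0.97 and 1.05 on arrays 3 and 4 in snf1, against 0.46, 0.62, 0.91 and 0.80 in wild type. In 17 of the 18 synthesis members with all 4 snf1 values (94.4%), both of arrays 3 and 4 exceeded both of arrays 1 and 2, beside 58 of 87 non-members of the same lists (66.7%) and 913 of 3790 genes in all (24.1%). The layout was also seen in 30 of 72 other members in snf1 (41.7%). In wild type it was seen in 13 of 20 synthesis members (65%) and in 1002 of 4458 genes in all (22.5%). The 104 other members had snf1 medians of 0.14, 0.34, 0.34 and 0.36. Each pair holds 1 array of either dye orientation, and the array labelled snf11 is in the lower pair. What separates the pairs was not tested. Of 18 synthesis members tested in snf1 at pH 8, 4 rose (ARG3, ARG56, SER3 and HIS4) and 0 fell. The 22.2% that rose is near the percent called over all genes (21.7), and nothing is read from it. Their mean over 4 arrays stands between unlike values. The fit shares its spread over all arrays, so the gap between the pairs also enters their low glucose tests.

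Other carriers and vitamin genes varied. CAN1, the arginine permease, read -0.20 and -0.66 in snf1 at low glucose, against -1.498 and -1.527 in wild type, with no overlap, and fell in snf1 (-0.43, limma adjusted p = 0.0463, up to 0.566 over alternatives). GNP1, a glutamine permease, had 1 snf1 value at low glucose (-1.51), against -0.98 and -1.06 in wild type. TNA1, the nicotinic acid permease, was steady over arrays: it read 0.28, 0.30, 0.38 and 0.45 in snf1 at pH 8, against 0.26, 0.39, 0.44 and 0.51 in wild type. At low glucose TNA1 read 0.93 and 0.55 in snf1, against -0.65 and -0.71 in wild type. It rose in snf1 at both treatments (limma adjusted p = 0.00544 and 0.000551), and the pH 8 call was lost in 2 alternatives (up to 0.0906). SNZ1, of vitamin B6 synthesis, read 0.30, 0.37, 2.56 and 2.01 in snf1 at pH 8, against 1.08, 0.97, 1.67 and 1.5 in wild type, and rose in snf1 (limma adjusted p = 0.00539, and 0.182 without arrays 3 and 4). It thus shared the pair layout of the synthesis members.

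The list of TOR and Ras/PKA signalling gave 4 members of 37 measured genes. Ras and protein kinase A form a pathway through which glucose promotes growth. CYR1, adenylate cyclase, read 0.23, 0.52, 0.21 and 0.45 in snf1 at pH 8, against 0.76, 0.42, 0.64 and 0.34 in wild type, and rose in snf1 (limma adjusted p = 0.0114, lost in 5 alternatives, up to 0.133). At low glucose it read -0.19 and 0.39 in snf1, against -1.16 and -0.98 in wild type. IRA2, which turns Ras off, read 0.27 and 0.46 in snf1 at low glucose, against -2.10 and -1.87 in wild type. The genotypes did not overlap. RTS1 and TPD3 are subunits of protein phosphatase 2A. Both rose in snf1 at both treatments, TPD3 with 0.91 and 0.95 in snf1 at low glucose, against -0.42 and -0.23 in wild type (limma adjusted p = 0.000308 in snf1). The call of RTS1 was lost in 10 alternatives at low glucose (mean 0.41) and in 4 at pH 8.

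Genes tied to Snf1 itself include SIP1, a subunit that directs the kinase, and PSK1, a PAS kinase. SIP1 was the only member among 12 measured genes listed for the Snf1 complex and its regulators. Of that list, 5 genes were raised at both treatments in wild type and 1 was lowered at both. PSK1 is in no list. SIP1 read 0.75 and 0.26 in snf1 at low glucose, against -0.57 and -0.58 in wild type. PSK1 read 1.04 and 0.83 in snf1 at low glucose, against -0.91 and 0.24 in wild type, and 0.28, 0.60, 0.78 and 0.59 in snf1 at pH 8, against 1.10, 0.61, 1.29 and 0.99 in wild type. Both rose in snf1 at both treatments, PSK1 with limma adjusted p = 0.0058 and 0.00251. The low glucose call of PSK1 was lost without low glucose array 1 (0.157), and its pH 8 call in 2 alternatives (up to 0.103). SIP1 lost its pH 8 call in 10 alternatives (up to 0.696) and its low glucose call in 3 (up to 0.665).

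Protein breakdown gave UFD4, a ubiquitin ligase, CDC53, a cullin, RPN2, a proteasome subunit, and BUL1, an adaptor of the ligase Rsp5. UFD4 read -0.56 and -0.75 in snf1 at low glucose, against -2.47 and -1.76 in wild type, and fell in snf1 (-0.65, limma adjusted p = 0.0462, up to 0.486 over alternatives). RPN2 read 0.65 and 0.50 in snf1 at low glucose, against -1.27 and -1.31 in wild type, and rose in snf1 (limma adjusted p = 0.0046, and 0.125 without low glucose array 1). The list therefore held a member lower and a member higher in snf1 at low glucose. At low glucose CDC53 stood at -0.10 in snf1, against -1.07 in wild type, and BUL1 at 0.30 in snf1, against -0.63 in wild type. Neither passed the test there. At pH 8 CDC53 rose in snf1 (0.31, limma adjusted p = 0.0396), a call lost in 8 alternatives (up to 0.192).

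Among the remaining named members, some had fairly even values over the snf1 pH 8 arrays and others did not. VTC5, of the vacuolar polyphosphate complex, read 0.46, 0.87, 0.83 and 0.64 in snf1 at pH 8, against 1.59, 1.11, 1.17 and 1.17 in wild type, and rose in snf1 (limma adjusted p = 0.000171). All its snf1 values were below all wild type values. STV1, the Golgi form of a subunit of the vacuolar-type proton pump, read 0.57, 0.46, 0.52 and 0.68 in snf1 at pH 8, against 0.33, 0.68, 0.57 and 0.75 in wild type. It read 0.66 and 0.58 in snf1 at low glucose, against -0.54 and -0.53 in wild type, and rose in snf1 at both (limma adjusted p = 0.000225 and 0.00143). EHT1, an enzyme of ethyl ester synthesis, read 1.23, 1.29, 0.52 and 0.63 in snf1 at pH 8, all above the wild type values of 0.24, 0.41, 0.46 and 0.35. At low glucose it read 1.01 and 0.93 in snf1, against -1.04 and -0.89 in wild type. SFT2, a protein of vesicle traffic at the Golgi, read 0.55, 0.89, 1.81 and 1.93 in snf1 at pH 8, against 1.62, 1.18, 1.92 and 1.97 in wild type. SFT2 thus shared the pair layout of the synthesis members in snf1, and EHT1 had the reverse layout. MHP1, a microtubule-associated protein, read 1.57 and 1.90 in snf1 at low glucose, against -0.78 and -0.58 in wild type (limma adjusted p = 9.05e-06 in snf1).

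IZH3, a membrane protein, had even wild type pH 8 values (0.80 ± 0.04, SD, n = 4). It read 0.10, 0.27, 0.47 and 0.27 in snf1 at pH 8, all below the 0.81, 0.80, 0.74 and 0.84 of wild type. SSD1, an RNA-binding repressor of translation, read 0.11, 0.11, 0.53 and 0.67 in snf1 at pH 8, against 0.74, 0.34, 1.15 and 0.68 in wild type, and 0.17 and 0.73 in snf1 at low glucose, against -1.88 and -1.18 in wild type. CHC1, the clathrin heavy chain and named after its values were seen, had the lowest wild type low glucose mean of all members. It read 0.11 and -0.01 in snf1 at low glucose, against -2.50 and -2.22 in wild type. HUR1, named after its values were seen, overlaps PMR1, one of the genes left out, over 181 of its 333 nt, so its values of -1.18 and -0.12 in snf1 at low glucose, against -1.48 and -1.25 in wild type, may hold PMR1 signal.

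Among other members with a large wild type response, several were measured on few snf1 arrays. ALD5, a mitochondrial aldehyde dehydrogenase, had 1.41 and 1.55 on 2 snf1 pH 8 arrays, against 0.56, 1.00, 1.80 and 1.97 in wild type. At low glucose it had 1 snf1 value (0.15), against -0.66 and -0.94 in wild type. RAD1, a nuclease subunit of nucleotide excision repair, read -0.08 and 0.08 in snf1 at low glucose, against -0.66 and -0.81 in wild type, with no overlap. ECM3, for which no role is given here, read 0.09 and -0.22 in snf1 at low glucose, against -0.77 and -0.62 in wild type, again with no overlap. Neither passed the test in snf1 (limma adjusted p = 0.991 for RAD1 and 0.851 for ECM3).

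CAF120, a partner of the Ccr4-Not complex, which shortens mRNA tails, read -0.28, 0.03, 1.39 and 1.27 in snf1 at pH 8, against 0.68, 0.55, 0.59 and 0.98 in wild type. IRC20, a ubiquitin ligase, read -0.74 and -0.04 in snf1 at low glucose, against -1.21 and -1.01 in wild type. Neither of these snf1 means passed the test (limma adjusted p = 0.0636 for CAF120 and 0.181 for IRC20). FMP27 read 0.59, 0.49 and 0.67 on 3 snf1 arrays at pH 8, against 1.10, -0.06, 0.78 and 0.52 in wild type. It rose in snf1 (limma adjusted p = 0.0341), a call lost in 7 alternatives (up to 0.465). CPS1, a vacuolar carboxypeptidase, read 0.67, 0.25, 1.54 and 1.00 in snf1 at pH 8, against 0.15, 0.37, 0.68 and 0.78 in wild type, and rose in snf1 (limma adjusted p = 0.00181). AVT1, a vacuolar amino acid transporter, read 0.27 and 0.09 in snf1 at low glucose, against -0.33 and -0.50 in wild type, and did not pass the test in snf1 (limma adjusted p = 0.422).

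In all, 41 members rose in snf1 at pH 8 and 5 fell in snf1 at low glucose. At pH 8, 101 members could be tested in snf1 and 23 had too few values. Of the 101, 41 rose (40.6%, percent called over all genes 21.7) and 0 fell (percent called 26.2). With unadjusted limma p under 0.05 the counts were 54 and 0, beside 1139 higher and 1367 lower of all 4591 genes tested. The median was 0.31 over members and -0.03 over all genes with enough wild type values. Among genes raised at both treatments in wild type, 632 of 870 rose in snf1 (72.6%), and among those raised at pH 8 with low glucose near 0, 76 of 133 (57.1%). The difference between these shares was not tested. The 4 arrays gave member medians of 0.11, 0.25, 0.40 and 0.42 in snf1, against 0.46, 0.34, 0.66 and 0.54 in wild type. The count was 48 without arrays 1 and 2, 24 without arrays 3 and 4, with 3 lower, and 50 without the array labelled snf11. These fits took genes with at least 2 of the values left. Members with too few values in the main fit could thus enter, so these counts are not over the same 101. Their shares over all genes were not counted, and nothing is read from the change in count.

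At low glucose, 100 members could be tested in snf1 and 24 could not. Of the 100, 5 fell (5%, percent called 16.9), 26 rose (26%, percent called 28.9) and 69 passed in neither direction. The median was 0.09 over members and 0.06 over all genes with enough wild type values. Both arrays were above 0 for 52 members and below 0 for 27. The snf1 mean was above 0 for 66 of 114 measured members, beside 2249 of 4185 genes with enough wild type values. The share that rose was near that of all genes, and the share that fell was smaller. The 5 lower members were GCV2, URA1, UFD4, YMR304C-A and CAN1. The count of higher members was 6 without array 1 and 19 without array 2, and that of lower members 4 and 2. Per array the member medians were 0.22 and 0.08 in snf1, against -0.82 and -0.67 in wild type.

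The wild type combination was looked for in snf1 among the 85 members tested at both treatments. It was found in 0 (percent called over all genes 0.122, 4 of 3290), and in 1 at unadjusted limma p under 0.05 (12 of 3290 over all genes). Nothing is read from this 0, as so few genes of any kind showed the combination. In 17 of the 85 (20%) the snf1 mean rose at both treatments (percent called 14.9), a share near that of all genes: IZH3, RGC1, STV1, JSN1, YLR337W, YGR259C, TNA1, RTS1, RPN2, EHT1, VIR1, PSK1, TPD3, HIS4, SFT2, SIP1 and FLC2. Rising at both was found in 364 of 684 genes raised at both in wild type (53.2%) and in 38 of 115 raised at pH 8 with low glucose near 0 (33.0%). For each of the 17 the low glucose call rests on 2 arrays. A fit without either array tests the other array alone, and cannot show on which array a call rests. YGR259C neighbours TNA1 (YGR260W) by systematic name. It read 0.89 and 0.61 in snf1 at low glucose, against 0.93 and 0.55 for TNA1. Overlap between them could not be checked, so they may not be separate loci. At pH 8 the call was lost in 9 alternatives for IZH3 (limma adjusted p up to 0.201) and in 8 for RPN2 (up to 0.39). Snf1 minus wild type was not tested, because the wild type mean enters the choice of members.

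**Figure D3:**
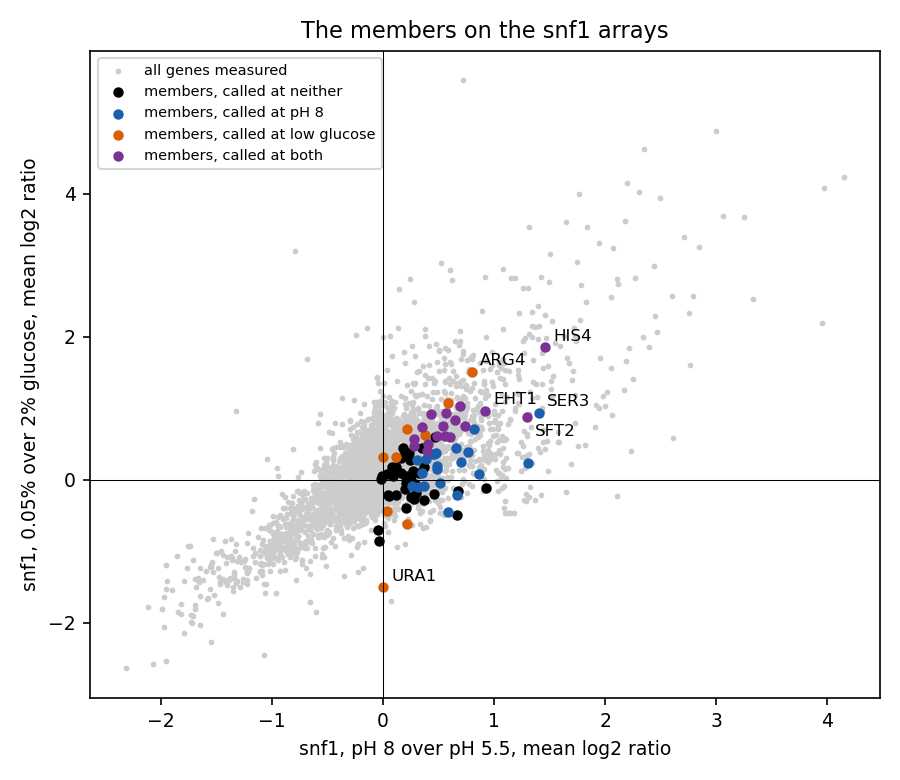
Each point is a gene measured on at least 3 snf1 pH 8 arrays and both snf1 low glucose arrays: the x axis is the snf1 mean log2 ratio at pH 8 and the y axis that at low glucose, with grey for all such genes with enough wild type values and colours for members by the limma calls. Most members lie right of 0 at pH 8 and spread on both sides of 0 at low glucose, and no member called at pH 8 is also called lower at low glucose.

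Members were long genes. Coding length, with introns, from the R64 RefSeq annotation was known for 117 of 124 members. The median was 2499 nt over members (quartiles 1725 and 3357) and 1215 nt over all genes with enough wild type values. Of the 117 members 45 exceed 3000 nt (38.5%), beside 317 of 4553 of all (6.96%). Genes raised at both treatments had a median of 1035 nt, genes raised at pH 8 with low glucose near 0 one of 1707 nt, genes lowered at pH 8 and raised at low glucose one of 851 nt, and genes lowered at both one of 1371 nt. The 20 synthesis members were shorter, with a median of 1430 nt, and the other members reached 2730 nt. Genes lowered at low glucose with pH 8 near 0 were not taken as a class, so great length is not shown to be particular to the members. Of the 317 genes over 3000 nt, limma called 81.4% lower in wild type at low glucose. Among all genes with enough wild type values it called 31.2% lower.

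**Figure D4:**
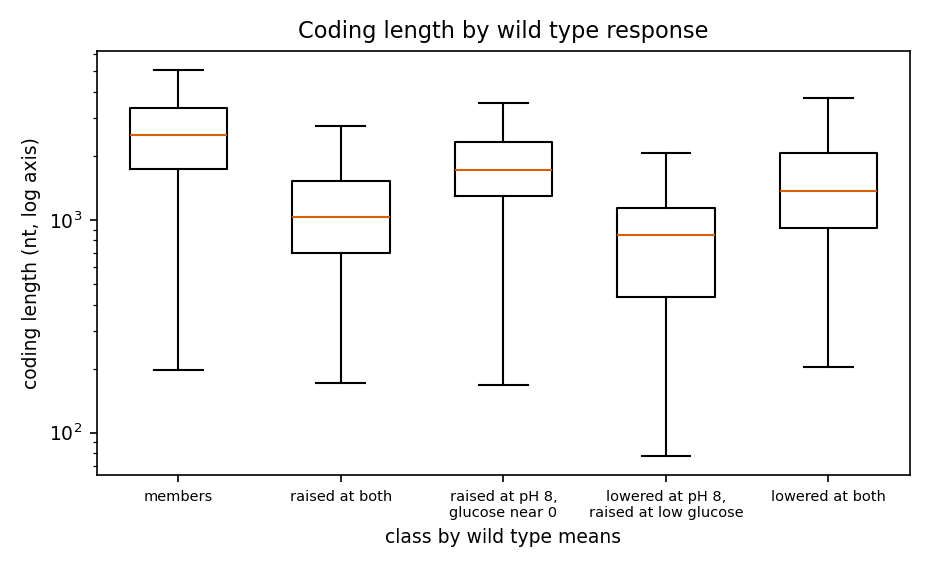
Boxes give the quartiles and median (orange line) of coding length in nt on a log axis for the members and for 4 other classes by wild type response, with whiskers to the last gene within 1.5 times the box height. The members have the highest box, with a median of 2499 nt.

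The low glucose side of wild type followed length over all genes. Median ratios by length class there were 0.54 (up to 600 nt, 644 genes), 0.39, 0.13, -0.11, -0.53, -1.09 and -1.74 (over 4000 nt, 116 genes). In snf1 the same classes stood at -0.03, 0.07, 0.14, 0.12, 0.06, -0.20 and -0.36. Spearman's rho with length over genes was -0.04 in snf1 (3973 genes), against -0.43 in wild type (4553 genes), as a description in which genes share arrays. At pH 8 rho of the array means was -0.01 in snf1 and 0.01 in wild type, but single arrays differed. Genes over 3000 nt had medians of -0.52, -0.07, -0.14 and -0.055 on snf1 arrays 1 to 4. In wild type these were 0.18, -0.46, 0.09 and -0.19. Treated RNA carried Cy3 on wild type arrays 1 and 3 and on snf1 arrays 2 and 3. Whether dye bears on length was not tested. Of the genes raised at pH 8, 1.65% were lowered at low glucose in the shortest class and 72% in the longest, beside 13.7% and 89.7% of all genes of those classes. The share of members ran with it, at 0.466% in the shortest class and 14.7% in the longest. What lies behind the trend was not tested.

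**Figure D5:**
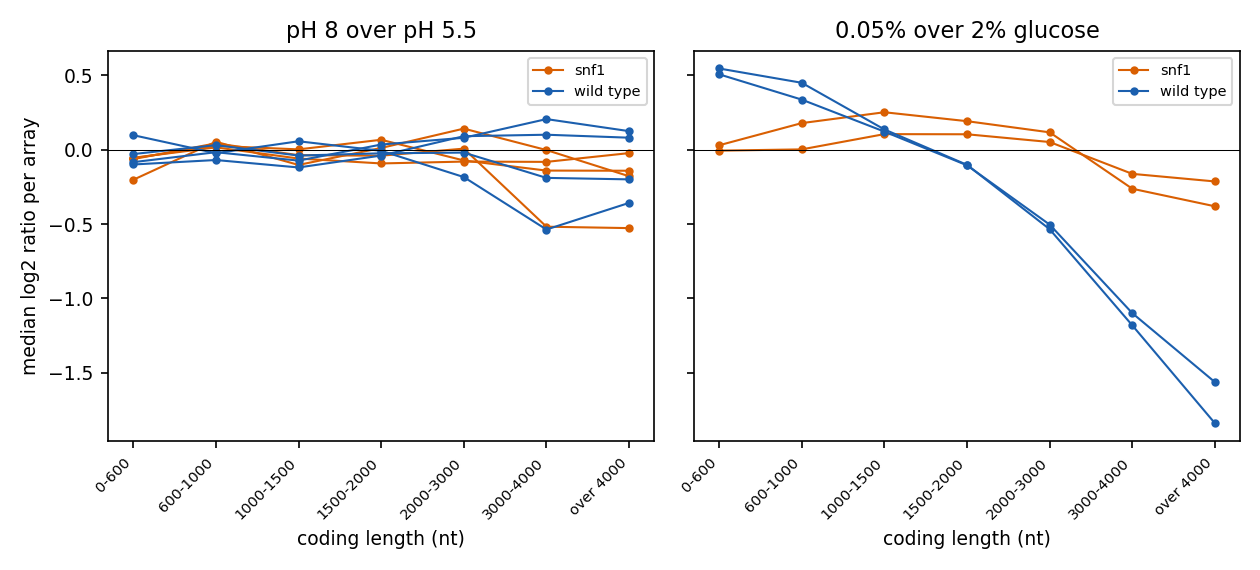
Lines give, for each array, the median log2 ratio of all genes in 7 classes of coding length in nt, at pH 8 (left) and low glucose (right), with snf1 in orange and wild type in blue. Both wild type low glucose arrays fall steadily with length, the snf1 low glucose arrays fall only in the longest classes, and the pH 8 arrays stay near 0 but for 1 array of each genotype below -0.3 over 3000 nt.

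Members longer than 3000 nt were compared with genes of that length. Their snf1 pH 8 median was 0.21, beside -0.17 over all such genes, and 12 of 32 tested rose (37.5%), beside 36 of 226 (15.9%). The members were chosen for a rise at pH 8 in wild type, and all such genes were not. In snf1 at low glucose the median of these members was 0.03, beside -0.26 over all such genes. There 6 of 34 tested members rose (17.6%), beside 20 of 227 (8.81%), and 2 fell (5.88%), beside 64 (28.2%). In wild type at low glucose, which also chose them, the members stood at -0.91, beside -1.32 over all genes over 3000 nt.

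When each array's trend with length was subtracted, 69 genes met the rule. Of the 117 members with a length, 51 still met it and 66 did not. The 51 had a median length of 1632 nt and the 66 of 3164 nt. Of the 20 synthesis members 18 stayed, all but HIS4 and MET10, beside 33 of 97 other members. On the snf1 arrays as deposited, the 51 gave 11 higher of 39 tested at pH 8 (28.2%, beside 21.7 percent called over all genes) and medians of 0.31 at pH 8 and 0.04 at low glucose. The 73 others, which include the 7 without a length, gave 30 higher of 62 (48.4%, beside the same 21.7) and medians of 0.30 and 0.10. The 7 members without an annotation match, 3 of them (YDR509W, YJL021C and YML117W-a) named after their values were seen, were YDR509W, YLR337W, YGR259C, YJL021C, YML117W-a, YKL202W and YMR304C-A, for which no role is given here. Without a match, their overlap with other genes, members included, could not be checked.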

How the data were processed

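The authors deposited 1 log ratio per gene and array, taken here as log2. Per the labels, 8 µg of total RNA was labelled with oligo(dT) priming, and spots under 120 µm or under 100 fluorescence units were left out. Normalization and scanner are not given in the sources used here. No further normalization was applied. Means were taken over arrays. All 12 arrays were fitted with limma 3.58.1 (R 4.3.3), with a mean for each of the 4 groups and a dye effect for each gene. Snf1 means were tested against 0, two-sided, with Benjamini-Hochberg adjustment over all genes tested and calls under 0.05, where 3 of 4 values (pH 8) or 2 of 2 (low glucose) were present. The fit shares its spread over all arrays. Length trends were lowess curves (fraction 0.3, statsmodels 0.14.6) of the ratio on log coding length, from the R64 RefSeq table, which also gave names for 117 of 124 members. Its coordinates are not printed, as no build is named for the array.

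The members and gene lists were chosen with earlier results of these data known. Named genes are the 20 members with the largest smaller wild type response, up to 6 members of each list with at least 4, the members called in snf1 at both treatments, up to 8 with the largest called snf1 change per direction and treatment, 3 genes on either side of each threshold, and SNF1. Other member names are marked as chosen after their values were seen. Alternatives changed thresholds, value filters, scaling, the dye term, the arrays fitted and blocks. Probe and promoter sequences were not analysed here. Values of 1 member that this rule covers are not reported here, and counts and medians include it.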

Additional observations from a re-analysis of the deposited data

Results flagged for a closer look

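Among 96 sets of 4 pH 8 arrays of named genes, the gap of a single array to its neighbour passed Dixon's critical ratio to the range in 2 cases, both in wild type: VTC5 on array 1 (1.592) and CAN1 on array 3 (0.60). By the construction of that ratio, chance alone gives about 1 set in 20.

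At low glucose, 27 of the 49 named members with both snf1 values had both snf1 arrays above 0 while both wild type arrays were below 0 (51 members in all). Of the 27, 26 are given by name. The difference was not tested, and the wild type direction was fixed by the choice of members. Some named members were picked because they rose in snf1, which favours a high count among the 49. The share over all genes was not counted, and nothing is read from the count. The snf1 means were 1.85 for HIS4, 1.74 for MHP1, 1.51 for ARG4, 1.04 for JSN1, 0.97 for EHT1, 0.94 for SER3 and 0.93 for TPD3. They were 0.87 for SFT2, 0.84 for VIR1, 0.75 for YGR259C, 0.75 for YLR337W, 0.74 for TNA1, 0.62 for RGC1, 0.62 for STV1, 0.60 for FLC2 and 0.57 for RPN2. The rest were 0.51 for SIP1, 0.47 for IZH3, 0.45 for SSD1, 0.41 for RTS1, 0.37 for IRA2, 0.30 for BUL1, 0.24 for VTC5, 0.24 for SNZ1, 0.18 for ADE3 and 0.18 for AVT1. At pH 8 no named member had opposite signs on all arrays of the genotypes.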

How the results depend on the processing

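The number of genes meeting the rule was 201, 44 and 6 at thresholds of 0.2, 0.5 and 0.8, 69 with the length trend subtracted, and 106 to 172 with 1 wild type array left out (172 without pH 8 array 2). Their median length was 1644 nt at 0.8, 1410 nt with the trend subtracted, and 2376 to 2733 nt with 1 array left out. Members higher in snf1 at pH 8 numbered 24 with consecutive arrays averaged, 24 without arrays 3 and 4, 14 and 1 at thresholds of 0.5 and 0.8, and 34 to 50 with 1 array left out. Fits with snf1 pH 8 arrays left out took genes with at least 2 of the values left, so their tested genes differ from those of the main fit. Members lower there numbered 1 at 0.2, 3 without arrays 3 and 4, and 0 to 2 with 1 array left out (2 without array 4). At low glucose, lower members numbered 3 with arrays scaled to one spread, 9, 3 and 1 at thresholds of 0.2, 0.5 and 0.8, and 2 to 6 with 1 array left out (2 without low glucose array 2). Higher members there numbered 15 in a fit of the snf1 arrays alone, 5 and 0 at thresholds of 0.5 and 0.8, and 6 to 28 with 1 array left out (6 without low glucose array 1). Higher at pH 8 and lower at low glucose in snf1 was 1 with arrays centred, 1 with no filter on values, and 0 to 1 with 1 array left out (1 without pH 8 array 1 or 2). The snf1 medians were 1.17 at pH 8 at the 0.8 threshold and 0.27 to 0.37 with 1 array left out, and at low glucose -0.0645 and -0.14 at thresholds of 0.5 and 0.8 and 0.081 to 0.224 with 1 array left out. Members higher in snf1 at both treatments numbered 11 in a fit of the snf1 arrays alone and 26 with the length trend subtracted. A fit without a snf1 low glucose array tests the other array alone, and cannot show on which array a call rests. Of 52 calls of named members in snf1, 35 were lost under at least 1 alternative and 11 under 5 or more. ADE13 at pH 8 stood at -0.43 without arrays 3 and 4 (limma adjusted p = 0.0319). The pair alternatives, the length trend and the alternatives for the count of members higher at both treatments were chosen after seeing the data. Except where a setting leaves out arrays or members, the cause was not tested.

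With experiment number as a replicate block, members numbered 40 higher and 0 lower at pH 8, 23 higher and 6 lower at low glucose, and 1 with both signs. The numbers are not stated to pair samples: same-numbered snf1 and wild type arrays deviated together with r of -0.12, -0.39, -0.16 and 0.07 at pH 8, and 0.29 at low glucose.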
